A study of Mus musculus with 6 samples.

Results

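The *Ifit* family and the core effectors of the interferon response were read as 10 genes, *Ifit1*, *Ifit2*, *Ifit3*, *Isg15*, *Usp18*, *Rsad2*, *Cmpk2*, *Ifi44*, *Bst2* and *Mx1*, in the mouse macrophage line Raw264.7 after knockdown of the ETS transcription factor *Etv5*. The genes were picked by symbol from the 24786 gene symbols measured, and all 10 were found. The libraries fell into 2 groups of 3. Cells of the sh-NC group had received a lentivirus with a negative control shRNA, and cells of the sh-*Etv5* group a lentivirus with an shRNA against *Etv5*. Polyadenylated RNA of each was sequenced. The labels state Lipofectamine 3000 for both groups and sampling 24 or 48 h after infection. The study, however, calls the sequenced cells stably transfected, and its methods describe puromycin selection of infected Raw264.7 cells. Raw264.7 comes from an Abelson virus-induced tumor, and the labels give the strain C57BL/6 and an age of postnatal day 21, although the line is generally described as of BALB/c origin. The study lists several *Etv5* shRNAs without naming the sequenced construct. Whether separate cultures were used within a group is not stated, and p-values then measure a spread between libraries that may be technical.

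Values were in RPKM, that is reads normalized to gene length and library size, which allows levels to be compared between genes. The deposited values do not give the depth of a library, and no counting error was computed. RPKM summed to between 320462 and 322949 in sh-NC libraries and to between 330454 and 340257 in sh-*Etv5* libraries. *Etv5* itself was at 9.18 to 9.89 RPKM with sh-NC and at 4.91 to 5.28 RPKM with sh-*Etv5* (log2 fold change -0.78, limma adjusted p = 2.74e-07). Of the 50-base sequences of *Etv5* transcripts, 24.5% also occur in *Gm4798*, so that reads of these genes may not be fully told apart. Of 8 macrophage markers, 7 reached 1 RPKM in some library, whereas *Mertk* did not. These 7 moved in both directions. *Itgam* (33.8 to 127 RPKM in the group means), *Adgre1* (2.60 to 11.3 RPKM) and *Cd14* (628 to 745 RPKM) were higher in sh-*Etv5*, and *Lyz2* (2834 to 2041 RPKM), *Csf1r* (428 to 244 RPKM), *Cd68* (365 to 246 RPKM) and *Fcgr1* (46.5 to 31.3 RPKM) were lower (highest limma adjusted p = 4.58e-05). The summed RPKM of the 8 markers, most of which is *Lyz2*, ran from 4298 to 4408 in sh-NC and from 3368 to 3486 in sh-*Etv5* libraries. Of 32 markers of 7 other blood and stromal cell types, 30 stayed below 1 RPKM, and *Ly6g*, *S100a9* and *Elane* of neutrophils, *Ly6d* of plasmacytoid dendritic cells, *Ncr1* of NK cells and *Col1a2* of fibroblasts were listed at 0 throughout. *S100a8* (0.123 to 0.491 RPKM in sh-NC and 15.5 to 19.7 RPKM in sh-*Etv5*) and *Cox6a2* (0.220 to 0.366 and 8.23 to 10.2 RPKM) were the exceptions. Summed RPKM of the 6 neutrophil markers ran from 0.289 to 0.630 in sh-NC and from 15.6 to 19.9 in sh-*Etv5* libraries, and of the 5 plasmacytoid dendritic cell markers from 0.261 to 0.377 and from 8.25 to 10.2. Nearly all of these sh-*Etv5* sums was *S100a8* alone and *Cox6a2* alone, respectively. The part of other cells in the results below was not tested.

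Type I interferons are secreted when a cell senses viral nucleic acid or bacterial products. They bind the receptor IFNAR on the same or on neighboring cells, whose kinases JAK1 and TYK2 activate the transcription factor complex ISGF3, which binds the interferon-stimulated response element (ISRE) in the promoters of interferon-stimulated genes. IRF3 and IRF7, which act downstream of the sensors, bind similar DNA, so that part of these genes can be induced without secreted interferon. Macrophages use this response against viruses and intracellular bacteria.

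Of the 10 genes, 7 rose and 1 fell after knockdown, and 2 were not called (limma on log2(RPKM + 1), Benjamini-Hochberg adjusted p under 0.05 over all 10738 genes that had at least 1 RPKM in at least 3 libraries, which all 10 genes did). *Rsad2* rose most, followed by *Ifit2*, *Isg15*, *Ifit3*, *Ifit1*, *Bst2* and *Usp18*. *Mx1* fell, and *Cmpk2* and *Ifi44* were not called. Most tested genes were called, 33.3% higher and 41.0% lower, 74.3% in all. The median log2 fold change of the 10 genes was 0.62, against -0.05 over all tested genes. The 10 genes were chosen with earlier results of these data known, which may have shaped this contrast. With a log2 fold change above 1 required as well, 3 of the 10 (*Rsad2*, *Ifit2* and *Isg15*) were called higher, against 6.23% of tested genes, and 0 were called below -1, against 3.0% (9.23% in either direction). These counts rest on the pseudocount of 1. With a pseudocount of 0.1, *Ifit3* (1.01) and *Mx1* (-1.10) passed as well. That gave 4 genes higher and 1 lower, against 8.37% and 4.53% of tested genes. A pseudocount of 0.01 gave the same counts, against 8.62% and 4.77% of tested genes. The values of the groups did not overlap for 7 of the 10 in the direction of a rise, against 34.3% of tested genes, and for 1 in the direction of a fall, against 42.1%. In bulk libraries, a larger share of cells that express a gene and more RNA per cell cannot be told apart.

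**Figure D1:**
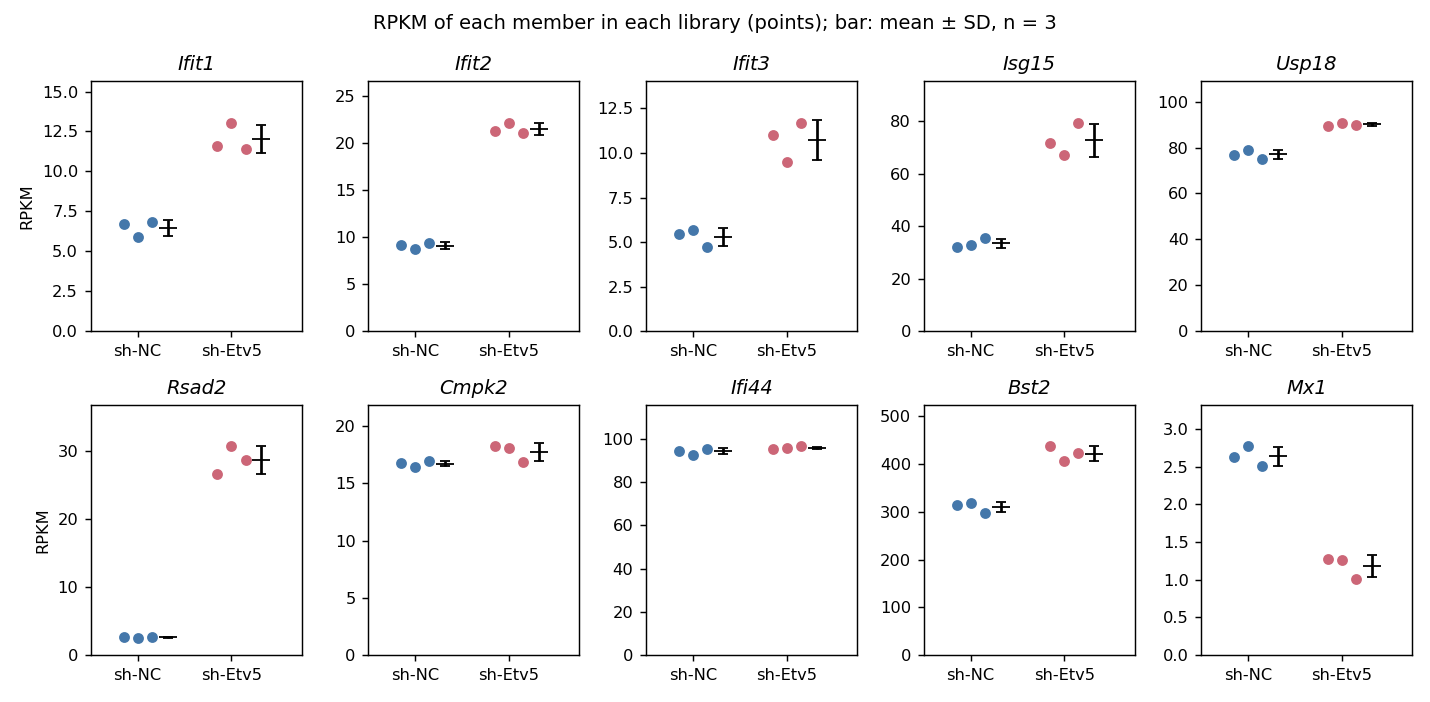
RPKM (y axis, from 0) of each of the 10 genes in the 3 sh-NC (blue) and 3 sh-*Etv5* (red) libraries, with a black bar for the mean ± SD of each group. The groups are separate for 8 genes, with sh-*Etv5* below sh-NC for *Mx1* alone, and they overlap for *Cmpk2* and *Ifi44*.

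The IFIT proteins are cytosolic RNA-binding proteins built of tetratricopeptide repeats, and IFIT1 binds viral RNA whose cap lacks methylation. Their genes form a cluster on chromosome 19. *Ifit2* (GRCm38 chromosome 19, 34550694 to 34576419, plus strand) was at 9.14, 8.75 and 9.42 RPKM with sh-NC and at 21.3, 22.1 and 21.0 RPKM with sh-*Etv5*. Every sh-*Etv5* library was above every sh-NC library. The mean RPKM rose 2.36-fold, from 9.10 ± 0.335 to 21.5 ± 0.598 (SD, n = 3), and the log2 fold change was 1.15 (standard error, SE, 0.0476, by limma with adjusted p = 2.75e-09).

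*Ifit1* (chromosome 19, 34640871 to 34650009, plus strand) was at 6.69, 5.89 and 6.81 RPKM with sh-NC and at 11.6, 13.0 and 11.4 RPKM with sh-*Etv5*. Again the groups did not overlap. Its mean rose 1.86-fold, from 6.46 ± 0.50 to 12.02 ± 0.895 RPKM (SD, n = 3), log2 fold change 0.80 (SE 0.0686, limma adjusted p = 1.03e-06). *Ifit3* (chromosome 19, 34583531 to 34588731, plus strand) was at 5.43, 5.69 and 4.73 RPKM and at 11.01, 9.47 and 11.7 RPKM. These groups were separate as well, and the spread within sh-*Etv5* was the wider of the groups. Its mean rose 2.03-fold, from 5.28 ± 0.492 to 10.7 ± 1.14 RPKM (SD, n = 3), log2 fold change 0.90 (SE 0.0821, limma adjusted p = 1.80e-06).

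The annotated genes of the cluster other than these are *Ifit1bl1*, *Ifit3b* and *Ifit1bl2*, and all 6 start within 90.2 kb. *Ifit3* and *Ifit3b* are near copies: of the 50-base sequences of *Ifit3* transcripts, 51.2% also occur in *Ifit3b*, so that reads of the pair could not be fully told apart. *Ifit3b* was at 1.44, 1.63 and 1.61 RPKM in sh-NC and at 2.63, 2.70 and 3.50 RPKM in sh-*Etv5* libraries. It was higher after knockdown (log2 fold change 0.62, limma adjusted p = 0.000109) at a level below that of *Ifit3* in every library. *Ifit1bl1* and *Ifit1bl2* stayed below 1 RPKM and were not among the tested genes. *Ifit1bl2* was at 0.197 to 0.258 RPKM in sh-NC and 0.443 to 0.717 RPKM in sh-*Etv5* libraries, and *Ifit1bl1* at 0.122 to 0.283 and 0.0223 to 0.113 RPKM. For *Ifit1*, 7.14% of 50-base sequences recur elsewhere, mainly in *Ifit1bl2*, and for *Ifit2* 0%.

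*Rsad2* and *Cmpk2* are neighbors on chromosome 12 that point away from each other, with starts 12.8 kb apart. RSAD2, or viperin, turns CTP into a chain-terminating nucleotide, and CMPK2 is a mitochondrial kinase that phosphorylates nucleoside monophosphates. Interferon is known to induce these neighbors together. In these libraries *Rsad2* (26442746 to 26456452, minus strand) was at 2.63, 2.47 and 2.57 RPKM with sh-NC and at 26.5, 30.6 and 28.7 RPKM with sh-*Etv5*. The groups were far apart. The mean rose 11.2-fold, from 2.56 ± 0.0810 to 28.6 ± 2.06 RPKM (SD, n = 3), and the log2 fold change of 3.05 (SE 0.0604, limma adjusted p = 7.64e-12) ranked 54 among the rises of all 10738 tested genes.

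*Cmpk2* (26469204 to 26479837, plus strand) was at 16.8, 16.5 and 16.9 RPKM in sh-NC and at 18.2, 18.1 and 16.8 RPKM in sh-*Etv5* libraries. The groups overlapped, because sh-*Etv5* replicate 3 lay within the sh-NC values. The log2 fold change was 0.08 (95% interval -0.02 to 0.18, limma adjusted p = 0.144). Without sh-*Etv5* replicate 3 it was 0.11 and the limma adjusted p was 0.0388, at the low end of a range of 0.0388 to 0.727 over its alternatives. The ratio of *Rsad2* to *Cmpk2* within a library, which no scaling of the library can change, was 0.157, 0.150 and 0.152 in sh-NC and 1.45, 1.69 and 1.70 in sh-*Etv5* libraries. *Rsad2* was thus the lesser transcript per length in each sh-NC library and the greater in each sh-*Etv5* library. An exact permutation test of this ratio gave p = 0.1 (2-sided, 3 against 3 libraries), the smallest p that the design allows, and 0.16 after Benjamini-Hochberg adjustment over the 8 gene pairs compared, as for each pair given below with p = 0.1. Any ratio whose groups do not overlap gives this p, and the pairs were chosen after the values were seen. It therefore adds nothing to the separation of the groups.

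The DNA before each start is shown for these neighbors. Whether it bears on their difference in expression was not tested. The 250 bases upstream of the start of transcription (RefSeq, GRCm38.p6) were searched on both strands for the core of the ISRE, GAAA followed by any 2 bases and again GAAA. Matches are in capitals and read TTTC, any 2 bases, TTTC where the core lies on the opposite strand. The windows are chr12:26456453-26456702 on the minus strand for *Rsad2* and chr12:26468965-26469214 on the plus strand for *Cmpk2*.
Rsad2: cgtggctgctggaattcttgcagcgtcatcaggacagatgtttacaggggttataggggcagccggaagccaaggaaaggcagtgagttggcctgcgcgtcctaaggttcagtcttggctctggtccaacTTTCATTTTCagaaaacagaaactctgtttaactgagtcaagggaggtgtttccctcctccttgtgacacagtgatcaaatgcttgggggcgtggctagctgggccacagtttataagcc
Cmpk2: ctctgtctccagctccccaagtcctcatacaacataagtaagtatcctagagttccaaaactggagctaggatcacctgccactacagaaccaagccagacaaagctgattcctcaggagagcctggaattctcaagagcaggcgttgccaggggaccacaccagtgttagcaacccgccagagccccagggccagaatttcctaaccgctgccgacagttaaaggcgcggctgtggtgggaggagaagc
*Rsad2* holds 1 match, 120 to 111 bases before the start on the opposite strand. *Cmpk2* holds 0 in this window.

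**Figure D2:**
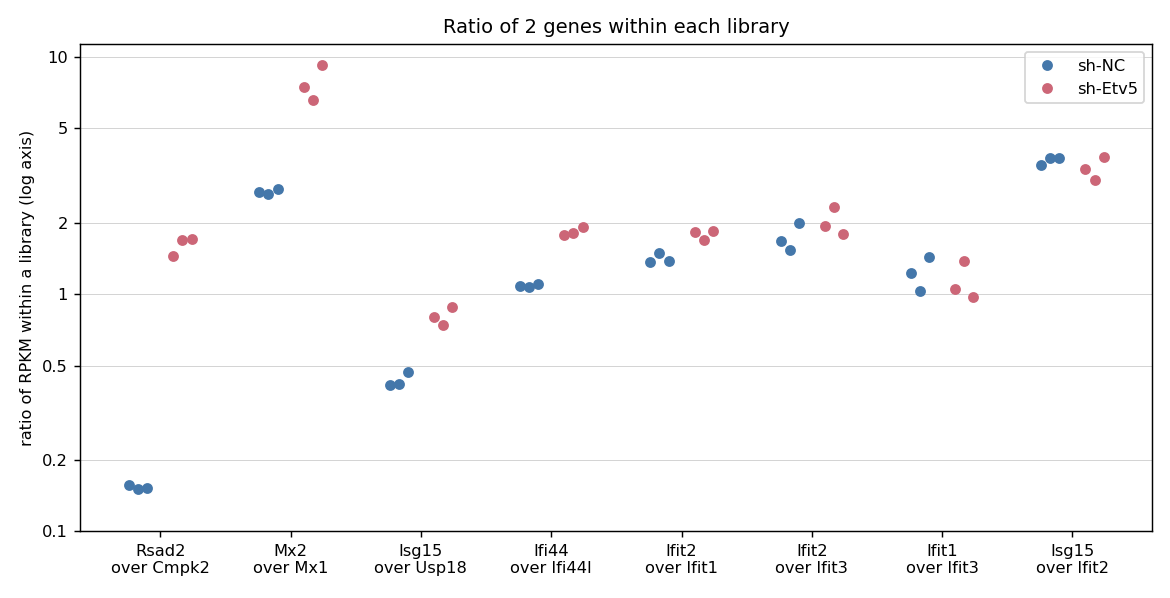
Ratio of the RPKM of 2 genes within each library (log axis) for 8 gene pairs, with sh-NC in blue and sh-*Etv5* in red. The ratio of *Rsad2* to *Cmpk2* moves from about 0.15 to between 1.45 and 1.70, while the ratios of *Ifit2* to *Ifit3*, *Ifit1* to *Ifit3* and *Isg15* to *Ifit2* overlap between the groups.

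ISG15 is a small protein of ubiquitin-like domains that is attached to other proteins and also secreted, and USP18 removes it again and blocks signaling at IFNAR2. On chromosome 4 (GRCm38 156199424 to 156200818, minus strand), *Isg15* measured 31.9, 32.9 and 35.3 RPKM in sh-NC and at 71.6, 67.1 and 79.4 RPKM in sh-*Etv5* libraries. All sh-*Etv5* values were higher. The mean rose 2.18-fold, from 33.4 ± 1.74 to 72.7 ± 6.20 RPKM (SD, n = 3), log2 fold change 1.10 (SE 0.0595, limma adjusted p = 2.33e-08). *Usp18* (chromosome 6, 121245906 to 121270917, plus strand) was at 76.9, 79.0 and 75.2 RPKM and at 89.5, 90.8 and 89.8 RPKM. Its groups did not overlap, yet the rise was small, at 16.9%, with a log2 fold change of 0.22 (SE 0.0332, limma adjusted p = 9.85e-05), below the median absolute log2 fold change of 0.31 over all tested genes. The ratio of *Isg15* to *Usp18* rose in every sh-*Etv5* library, from 0.434 ± 0.0309 to 0.807 ± 0.0725 (SD, n = 3, exact permutation p = 0.1). Of the exons of *Usp18*, 4.44% of bases overlap *Gm44148* on the opposite strand.

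The enzymes that attach ISG15 were all called, in different directions, where 74.3% of all tested genes were called. *Uba7*, the activating enzyme, rose from 16.7 ± 0.520 to 21.3 ± 0.629 RPKM (SD, n = 3) and the ligase gene *Herc6* from 3.11 ± 0.0646 to 5.13 ± 0.159 RPKM. *Trim25*, a ligase that also activates the RNA sensor RIG-I, had a log2 fold change of 0.30. The conjugating enzyme *Ube2l6* (log2 fold change -0.15, limma adjusted p = 0.00185) and the ligase *Arih1* (-0.15, limma adjusted p = 0.00585) fell. The highest of the other adjusted p-values in this list of 5 was 4.30e-05, for *Uba7*.

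*Bst2* encodes tetherin, which holds budding virus particles at the cell surface, and was the most abundant of the 10 genes per length. On chromosome 8 (GRCm38 71534255 to 71537456, minus strand), *Bst2* measured 315, 318 and 297 RPKM in sh-NC and at 437, 406 and 424 RPKM in sh-*Etv5* libraries. The groups did not overlap, and the log2 fold change was 0.44 (SE 0.0388, limma adjusted p = 1.26e-06), a rise of 36.1% in mean RPKM.

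IFI44 is an interferon-induced protein with a GTPase-like region. The transcript of *Ifi44* (chromosome 3, 151730922 to 151749960, minus strand) measured 94.7, 92.8 and 95.5 RPKM in sh-NC and at 95.5, 95.9 and 96.6 RPKM in sh-*Etv5* libraries. These values overlapped, and the log2 fold change was 0.03 (95% interval -0.04 to 0.09, limma adjusted p = 0.479), which turned to -0.036 with libraries rescaled to the same sum. Its neighbor *Ifi44l*, named after its values were seen, starts 12.9 kb away on the same strand and was at 87.6, 86.7 and 86.4 RPKM in sh-NC and at 53.9, 52.8 and 50.3 RPKM in sh-*Etv5* libraries. *Ifi44l* fell (log2 fold change -0.72, limma adjusted p = 1.26e-08). The ratio of *Ifi44* to *Ifi44l* went from 1.09 ± 0.0178 to 1.84 ± 0.0769 (SD, n = 3, exact permutation p = 0.1), without overlap.

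MX1 is a dynamin-like GTPase that blocks influenza virus in the nucleus, and the gene carries a disabling deletion in many inbred mouse strains. *Mx1* (chromosome 16, 97447035 to 97462907, minus strand) was low, at 2.64, 2.77 and 2.51 RPKM in sh-NC and at 1.28, 1.26 and 1.01 RPKM in sh-*Etv5* libraries. It was the only one of the 10 genes with all sh-*Etv5* values below all sh-NC values. The mean dropped by 55.3%, from 2.64 ± 0.129 to 1.18 ± 0.151 RPKM (SD, n = 3), and the log2 fold change was -0.74 (SE 0.0806, limma adjusted p = 7.83e-06). A pseudocount of 0.01 in place of 1 moved this value to -1.16. Next to it, 72.4 kb between starts, *Mx2* was at 7.10, 7.31 and 6.98 RPKM and at 9.52, 8.28 and 9.30 RPKM, and rose (chosen after its values were seen, log2 fold change 0.30, limma adjusted p = 0.000941). Elsewhere in the annotation, mainly in *Mx2*, 4.37% of the 50-base sequences of *Mx1* recur.

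**Figure D3:**
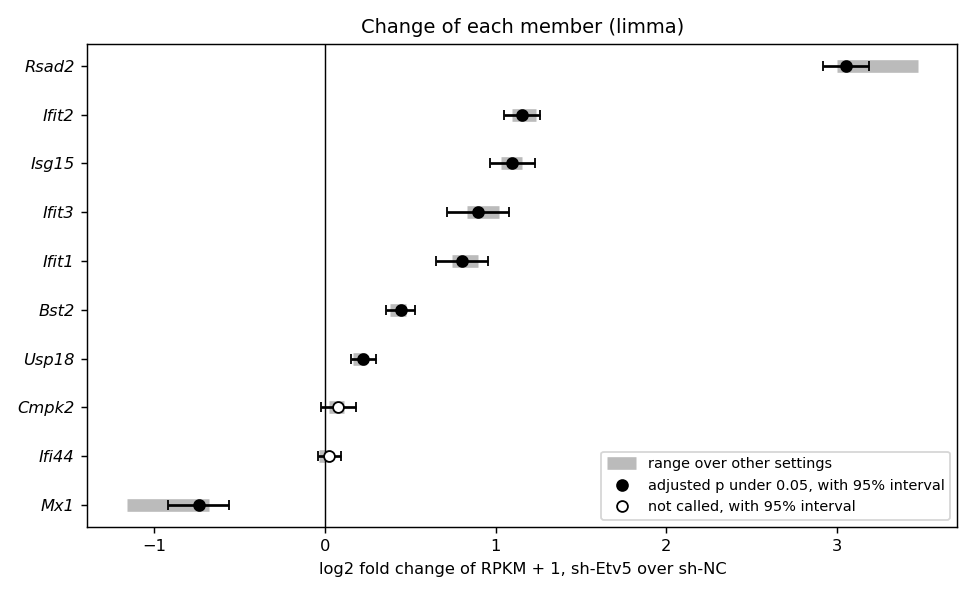
Log2 fold change of RPKM + 1, sh-*Etv5* over sh-NC (x axis), of each of the 10 genes, with 95% intervals as black lines and the range over the other settings as grey bars. Filled points passed the test. *Rsad2* stands at 3.05, *Mx1* at -0.74, and the intervals of *Cmpk2* and *Ifi44* include 0.

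Levels were also ordered per length within each group. In sh-NC cells the order was *Bst2* (310.1 RPKM), *Ifi44* (94.4), *Usp18* (77.0), *Isg15* (33.4), *Cmpk2* (16.7), *Ifit2* (9.10), *Ifit1* (6.46), *Ifit3* (5.28), *Mx1* (2.64) and *Rsad2* (2.56). Only *Mx1* and *Rsad2* overlapped among neighbors in that order. In sh-*Etv5* cells the top 4 places were held by the same genes in the same order, *Rsad2* took place 5 (28.6 RPKM) ahead of *Ifit2* (21.5), and *Cmpk2* followed at 17.7 RPKM. *Ifit1* and *Ifit3* overlapped there, and *Mx1* came last. Within the *Ifit* genes the ratio of *Ifit2* to *Ifit1* rose from 1.41 ± 0.0648 to 1.79 ± 0.0806 (SD, n = 3, exact permutation p = 0.1) without overlap. The ratios of *Ifit2* to *Ifit3* (exact permutation p = 0.3), *Ifit1* to *Ifit3* (p = 0.6) and *Isg15* to *Ifit2* (p = 0.4) overlapped between the groups. The 8 pairs were chosen after the values were seen.

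Upstream letters were available for 8 of the 10 genes, all but *Usp18* and *Mx1*. The ISRE core was present before *Rsad2*, *Isg15*, *Ifit1*, *Ifit3* and *Bst2*, and absent from the windows of *Ifit2* (at either of its starts), *Cmpk2* and *Ifi44*. All 5 genes with the core were called higher, against 33.3% of all tested genes. The share called higher among all genes with the core was not computed. Of the 3 members without the core, *Ifit2* was called higher and *Cmpk2* and *Ifi44* were not called. The core occurs in 2.98% of the 32851 windows of this length in the RefSeq table. With so few genes no test was made, and a missing match says only that these letters are not in this window. The windows of 4 more genes are shown for comparison of the matches (chr4:156200819-156201068, minus strand, for *Isg15*, chr19:34640639-34640888 and chr19:34583279-34583528, plus strand, for *Ifit1* and *Ifit3*, and chr3:151749911-151750160, minus strand, for *Ifi44*).
Isg15: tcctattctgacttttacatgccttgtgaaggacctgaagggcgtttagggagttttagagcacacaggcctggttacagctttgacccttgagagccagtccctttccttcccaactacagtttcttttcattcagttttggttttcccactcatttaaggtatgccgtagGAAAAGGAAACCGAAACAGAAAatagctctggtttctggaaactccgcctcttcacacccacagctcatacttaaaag
Ifit1: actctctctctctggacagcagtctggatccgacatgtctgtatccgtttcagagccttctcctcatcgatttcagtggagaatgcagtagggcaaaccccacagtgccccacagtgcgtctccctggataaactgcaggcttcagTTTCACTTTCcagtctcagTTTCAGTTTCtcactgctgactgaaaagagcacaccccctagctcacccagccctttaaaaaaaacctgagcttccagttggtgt
Ifit3: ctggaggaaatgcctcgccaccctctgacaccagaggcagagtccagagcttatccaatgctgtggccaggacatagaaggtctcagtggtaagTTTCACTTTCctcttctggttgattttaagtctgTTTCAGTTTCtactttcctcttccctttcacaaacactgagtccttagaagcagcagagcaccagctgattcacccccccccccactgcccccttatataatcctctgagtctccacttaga
Ifi44: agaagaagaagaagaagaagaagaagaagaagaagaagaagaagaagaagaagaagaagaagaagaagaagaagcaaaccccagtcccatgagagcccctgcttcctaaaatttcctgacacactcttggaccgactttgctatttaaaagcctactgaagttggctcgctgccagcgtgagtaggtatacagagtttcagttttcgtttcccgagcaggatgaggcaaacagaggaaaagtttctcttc
*Isg15* holds 3 overlapping matches in a row from 78 to 57 bases before the start. *Ifit1* holds 2, at 104 to 95 and 85 to 76 bases, and *Ifit3* holds 2, at 156 to 147 and 122 to 113 bases, all on the opposite strand. *Bst2*, which is not printed, holds 2 overlapping matches between 130 and 115 bases. CCGGAAGT, a consensus of ETS factors such as ETV5, was found before *Ifit2* alone (203 to 196 bases before the upstream start) and in 2.88% of all windows.

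**Figure D4:**
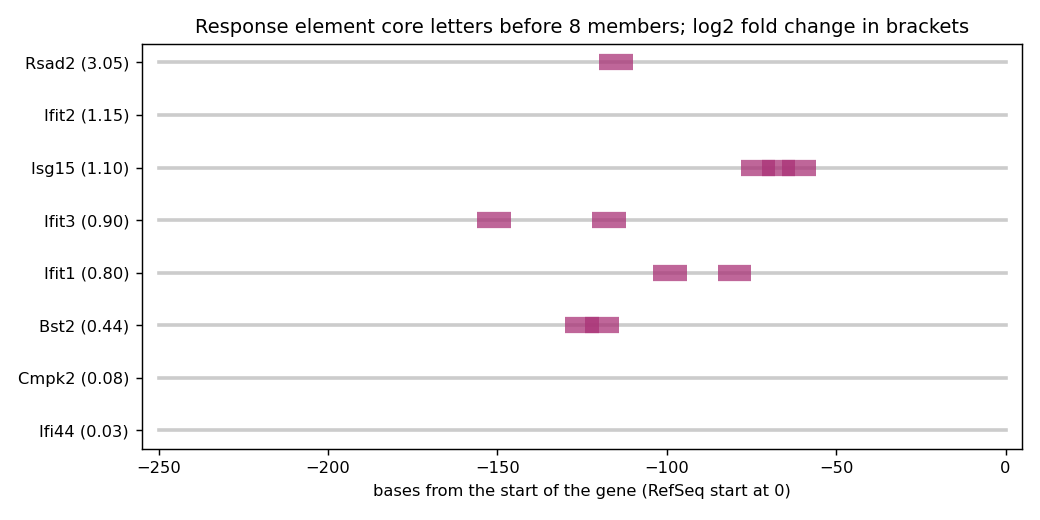
Position of each match to the ISRE core (purple) in the 250 bases before the RefSeq start (x axis, bases) of 8 genes, ordered by log2 fold change, which is given in brackets. Matches lie between 156 and 57 bases before the start of *Rsad2*, *Isg15*, *Ifit3*, *Ifit1* and *Bst2*, and *Ifit2*, *Cmpk2* and *Ifi44* have none.

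Interferon genes themselves were at or close to 0. Of 21 type I, II and III interferon genes, 15 were listed at 0 RPKM in all 6 libraries and none reached 1 RPKM, so that 0 were tested. *Ifnb1*, the interferon beta gene, was listed at 0, 0 and 0.175 RPKM in sh-NC and at 0.540, 0.570 and 0.272 RPKM in sh-*Etv5* libraries. All sh-*Etv5* values of *Ifnb1* were above the sh-NC values, and without the filter on low values its log2 fold change was 0.46 (95% interval 0.19 to 0.73, limma adjusted p = 0.0162). That value is on the log2(RPKM + 1) scale, which understates a change between group means of 0.0584 and 0.461 RPKM. The depth behind such low values is unknown, and the interval holds no counting error. The highest value among the other 20 genes was 0.161 RPKM.

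Receptor and JAK-STAT genes moved in both directions and by little. Of 12 genes, 11 were tested, 4 were higher, 5 lower and 2 not called, with a median log2 fold change of -0.01 and a range of -0.44 to 0.36. Over all tested genes, 33.3% were called higher and 41.0% lower. Both chains of the type I receptor fell, *Ifnar2* from 18.1 ± 0.393 to 13.1 ± 0.224 RPKM (SD, n = 3, log2 fold change -0.44) and *Ifnar1* from 6.61 ± 0.191 to 5.83 ± 0.0905 RPKM (-0.16). *Irf9*, a subunit of ISGF3, fell (-0.21, limma adjusted p = 0.000849). *Stat2* rose (0.31, limma adjusted p = 0.000708), together with *Jak1* (0.36), *Il10rb* (0.18) and *Jak2* (0.15). *Jak2* was not called with libraries rescaled to an equal sum (0.09, limma adjusted p = 0.128) or without sh-NC replicate 1 (0.13, 0.0605), and *Ifnar1* was not called without sh-NC replicate 1 (-0.14, 0.0806), sh-NC replicate 3 (-0.15, 0.0605) or sh-*Etv5* replicate 1 (-0.15, 0.0589). *Ifngr1*, a chain of the interferon gamma receptor, fell (-0.40), and *Tyk2* (0.11, limma adjusted p = 0.0861) and *Ifngr2* (-0.01, 0.888) were not called. *Tyk2* was called without sh-*Etv5* replicate 3 (0.17, limma adjusted p = 0.0081).

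Among 9 negative regulators of this signaling, 3 were higher, 3 lower and 3 not called, against 33.3% of all tested genes called higher and 41.0% lower. Their median log2 fold change was -0.08. *Socs3*, which restrains gp130 cytokine receptors and is induced by STAT3, was at 1.57, 1.99 and 1.67 RPKM in sh-NC and at 72.2, 72.1 and 68.8 RPKM in sh-*Etv5* libraries (log2 fold change 4.72 with limma, adjusted p = 2.14e-13). That exceeded the change of each of the 10 genes. *Socs1*, the relative that acts on JAK1 and TYK2, was not called (0.09, 95% interval -0.14 to 0.32, limma adjusted p = 0.428). *Pias4* (0.37) and *Ptpn6* (0.21) rose, *Ptpn2* (-0.36), *Pias1* (-0.34) and *Ptpn11* (-0.28) fell, and *Pias2* (-0.13, limma adjusted p = 0.0581) and *Pias3* (-0.08, 0.300) were not called. *Pias2* passed without sh-*Etv5* replicate 3 (-0.17, limma adjusted p = 0.0308).

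The sensors, adaptors and factors that induce interferon were called 8 times higher and 8 times lower among 20 tested genes, with 4 not called. Calls over all tested genes were 33.3% higher and 41.0% lower. The median log2 fold change of the 20 was 0.05. The rises were led by the kinase *Ikbke* (5.50 ± 0.402 to 19.6 ± 0.972 RPKM, log2 fold change 1.67), the TLR3 and TLR4 adaptor *Ticam1* (6.38 ± 0.269 to 17.8 ± 0.266 RPKM, 1.35) and the RNA sensor *Ifih1* (7.62 ± 0.268 to 16.3 ± 0.657 RPKM, 1.00). The falls were led by the RNA-sensing receptor *Tlr7* (33.1 ± 2.0 to 10.6 ± 0.671 RPKM, -1.56), the DNA sensor cGAS under its older symbol *Mb21d1* (19.9 ± 0.957 to 10.9 ± 0.341 RPKM, -0.81) and the receptor *Tlr4* (5.96 ± 0.224 to 3.70 ± 0.236 RPKM, -0.57), all means ± SD of 3 libraries. The highest limma adjusted p of these 6 was 1.08e-05.

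A list of 70 other interferon-stimulated genes was read for comparison, of which 59 passed the filter. Of these, 24 rose, 22 fell and 13 were not called, where 33.3% of all tested genes were called higher and 41.0% lower. The median log2 fold change was -0.02, against 0.62 for the 10 genes and -0.05 over all tested genes. On the log2(RPKM + 1) scale, the largest rises were those of the chemokine *Ccl5* (log2 fold change 2.74), the checkpoint ligand *Cd274* (1.90) and the DNA-sensing family gene *Ifi209* (1.89). *Cd274* and *Ifi209* were below 1 RPKM in every sh-NC library and passed the filter only through the sh-*Etv5* libraries. Their values depended on the pseudocount: with 0.01 in place of 1, the log2 fold change was 3.43 for *Ifi209*, 2.95 for *Ccl5* and 2.93 for *Cd274*, and by the ratio of mean RPKM *Ifi209* (10.4-fold) also came before *Ccl5* (7.75-fold). *Ccl5* went from 5.27 ± 0.587 to 40.9 ± 4.30 RPKM (SD, n = 3). The largest falls were those of *Slfn8* (-1.53), *Ifi27l2a* (-1.17) and *Oasl2* (-0.79), and *Ifi27l2a* went from 63.6 ± 0.802 to 27.8 ± 4.04 RPKM (SD, n = 3). Requiring a log2 fold change above 1 in size left 6 higher and 2 lower genes, against 6.23% and 3.0% of all tested genes. Among the 6, *Gbp3* was also below 1 RPKM in every sh-NC library. Like *Cd274* and *Ifi209*, it could therefore enter these counts only as a rise. Among the 3 largest rises and the 3 largest falls, the highest limma adjusted p was 1.42e-07. Whether the 10 genes differ from this list was not tested.

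**Figure D5:**
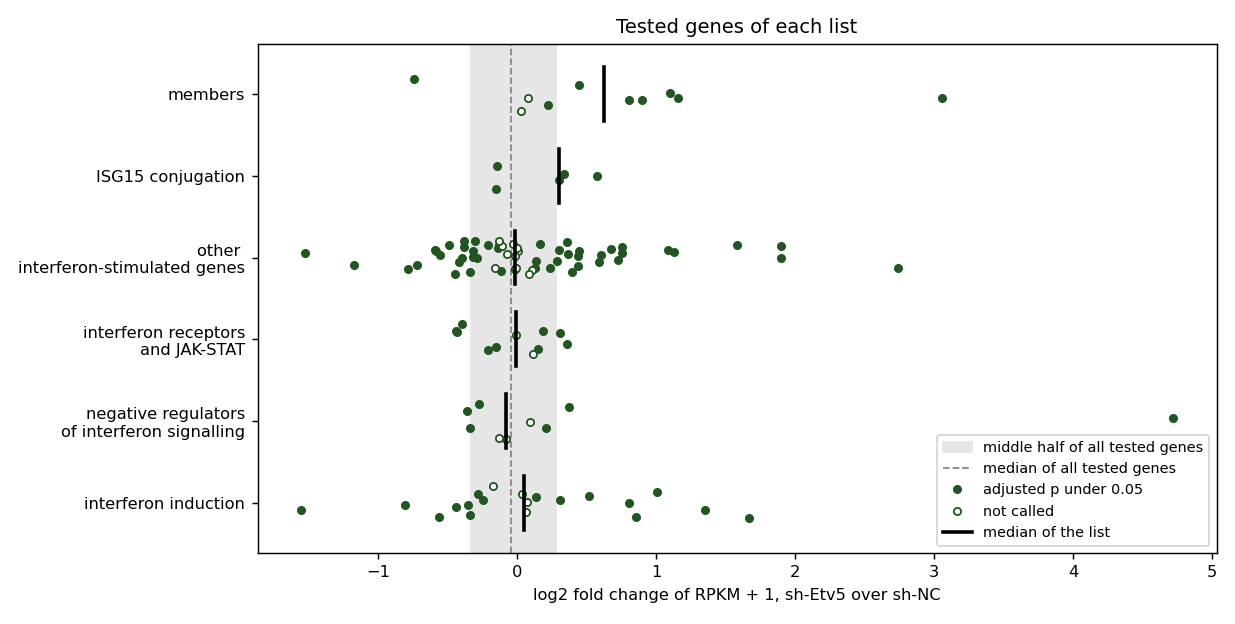
Log2 fold change of RPKM + 1, sh-*Etv5* over sh-NC (x axis), of each tested gene (points, filled where called) in 6 lists, with the median of each list as a black bar and the median and middle 50% of all tested genes as a dashed line and grey band. The median of the 10 genes lies at 0.62, and those of the receptor and JAK-STAT list and of the other interferon-stimulated genes lie at -0.01 and -0.02.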

How the data were processed

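For each gene symbol and library, the authors deposited 1 untransformed RPKM value, normalized to gene length and library size. The submitters' processing notes name mm10. The aligner, counter, annotation and use of strand are not given in the sources used here. Between libraries, the commonest ratio of values below 0.1 RPKM covered at most 5.21% of genes, so that whole reads were not recovered.

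Genes with at least 1 RPKM in at least 3 of 6 libraries were compared on log2(RPKM + 1), which understates changes of low genes, by limma 3.58.1 under R 4.3.3 (moderated variances with intensity trend, 2-sided, no covariate) and Benjamini-Hochberg adjustment. On simulated data for 10738 genes, the test called 86 of 100 genes changed by 0.5 (log2), 96 of 100 changed by 1, and 20 unchanged genes. Only these genes were changed there, with independent normal noise, whereas 74.3% of tested genes were called in the real data. These counts therefore need not hold for the real data. Fold values are ratios of mean RPKM. Coordinates, exon overlaps and 50-base sequences (both strands) came from GENCODE release M21 on GRCm38, which matched 97.9% of symbols, and upstream sequences from RefSeq (GRCm38.p6), searched in the 250 bases before the start alone.

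The 10 genes and the lists were chosen with earlier results of these data known. Named were all 10 genes, all members of the smaller lists in values or counts, and the 3 largest called rises and falls of the longer ones. *Ifi44l*, *Mx2* and *Gbp3* were named besides, after their values were seen. *Lipa*, *Slc16a12*, *Agrn* and *AW011738* were picked from the nearest tested genes on each side of the 10 genes. Not all of the other nearest genes are given. Other settings were smaller pseudocounts (0.1 and 0.01), filters (none, or a mean of at least 5 RPKM), 3 scalings, no trend, the replicate block, stricter thresholds and each library left out. The values of 1 gene of the receptor and JAK-STAT list are not reported here.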

Additional observations from a re-analysis of the deposited data

How the results depend on the processing

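Under 16 alternatives (15 for *Mx1*), the threshold on the fold change apart, the direction and call of 8 of the 10 genes and of *Etv5* were kept. The exceptions were *Ifi44*, whose log2 fold change turned to -0.036 once each library was rescaled to an equal sum, and *Cmpk2*, which was called without sh-*Etv5* replicate 3. The log2 fold change of *Cmpk2* ranged from 0.0592 to 0.11 over the libraries left out. The cause was not tested. A filter on a mean of 5 RPKM removed *Mx1*, leaving 0 genes called lower, and *Ifit3b*, leaving 0 paralogs called higher, and no filter gave 2 paralogs. Among genes outside the 10, *Ifngr2* turned to 0.047 and *Socs1* to -0.043 with quantile normalization, and with single libraries left out they ranged from -0.047 to 0.021 and from -0.016 to 0.19. *Pias2* was called with equal sums (-0.19), with quantile normalization (-0.15) and without the trend (-0.13).

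With an absolute log2 fold change above 1 required, *Ifit1* (0.80), *Ifit3* (0.90), *Usp18* (0.22), *Bst2* (0.44), *Mx1* (-0.74) and *Etv5* (-0.78) were no longer called, which left 3 of the 10 genes higher and 0 lower, 0 paralogs, 0 receptor and JAK-STAT genes and 0 ISG15-conjugating genes in either direction, 1 negative regulator higher and 0 lower, 3 induction genes higher and 1 lower, 6 other interferon-stimulated genes higher and 2 lower, and 669 of all tested genes higher and 322 lower. With pseudocounts of 0.1 and 0.01, combined with this threshold after seeing the data, *Ifit3* (1.01 and 1.02) and *Mx1* (-1.10 and -1.16) passed it. That gave 4 of the 10 genes higher and 1 lower at each pseudocount. Of all tested genes, 8.37% and 8.62% were then called higher, and 4.53% and 4.77% lower.

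Deviations of same-numbered libraries from their group means correlated at 0.0739, -0.0710 and -0.0352, so that the numbers were not taken as pairs. With the replicate number as a block, 7 of the 10 genes were higher and 1 lower, and 3539 of all tested genes were higher and 4361 lower. With only RPKM, the depth behind low values such as those of *Mx1* and *Ifnb1* is unknown.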

Other observations

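The nearest tested gene on each side of the *Ifit* cluster, by start, was called lower. *Lipa*, the lysosomal acid lipase gene, starts 23.2 kb before *Ifit2* and changed by -0.10 on the log2 scale (limma adjusted p = 0.0222), a call lost without sh-NC replicate 2 (0.0645), sh-NC replicate 3 (0.0982) or sh-*Etv5* replicate 1 (0.0723) and without the trend (0.0698), and *Slc16a12*, a transporter gene, starts 106.4 kb beyond *Ifit1* and had -1.65 (limma adjusted p = 3.51e-09). Beside *Isg15*, *Agrn* fell (-0.35, limma adjusted p = 0.00139) 3.33 kb away, while *AW011738* rose (1.18, limma adjusted p = 6.90e-07) 2.49 kb away.

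The tested gene with the highest Pearson correlation of log2(RPKM + 1) over the 6 libraries was *Itga6* for *Rsad2* (r = 0.9999), *Trp53inp2* for *Ifit2* (r = 0.9997), *Ppic* for *Isg15* (r = 0.9995) and *Parvb* for *Mx1* (r = 0.9994). These values describe libraries that fall into 2 separate groups, and the genes share that split.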
